A study of Homo sapiens with 6 samples.

Results

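The proteasome genes are the rows of the deposited table whose gene symbol is PSM, a letter from A to G and a number, and 46 of the 16000 genes of the table met that rule. They were split by the letter into 7 core alpha subunits, 10 core beta subunits, 6 ATPases, 14 non-ATPase subunits, 4 activators, 1 inhibitor and 4 assembly chaperones. PSMA8 and PSMB11, which the annotation also lists, were not analysed here. Poly(A) RNA was sequenced from LNCaP, an established human prostate cancer line of luminal, androgen-responsive character, sorted on ALDEFLUOR, which lights up cells with aldehyde dehydrogenase activity. ALDH high is the brightest 10% of sorted cells and ALDH low the dimmest 10%, with 3 samples of each and no other treatment. Both groups were cultured in RPMI-1640 with 10% fetal bovine serum, sorting was followed by culture, and how long the sorted cells were kept before RNA was taken is not stated by the labels. All samples come from 1 cell line, and no label tells whether the 3 samples within a group are from separate sorts.

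The proteasome degrades proteins that carry a chain of ubiquitin. Its barrel-shaped core is built of stacked rings of alpha and beta subunits, of which PSMB5, PSMB6 and PSMB7 cut peptide bonds, and a regulatory particle of ATPase and non-ATPase subunits binds, unfolds and feeds in the substrate. In cells exposed to interferon, PSMB8, PSMB9 and PSMB10 take the places of the cutting subunits and form the immunoproteasome, whose peptides are loaded on MHC class I. Prostate epithelium, a secretory tissue, relies on the proteasome also to clear misfolded proteins exported from the endoplasmic reticulum.

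Values are normalized reads, that is, read counts divided by the authors' size factor of each library, and gene coordinates are those of GENCODE release 29 (GRCh38). The reads recovered per library, spike-ins included, ran from 23817310 to 30617873. The 8 luminal prostate markers listed, among them KLK3, KRT8 and KRT18, were all in the table, with sums of 174821 to 194123 (ALDH high) against 173483 to 210846 (ALDH low). Of the 16 markers of other cell types, 4 were in the table, with summed levels of 16.4 to 32.0 (ALDH high) against 19.9 to 27.9 (ALDH low) for leukocytes, which had CD68 alone. Endothelial levels, with VWF alone, were 189 to 417 and 235 to 386. Fibroblast levels, with COL1A1 and PDGFRB, were 1539 to 1846 and 881 to 1519, so the groups did not overlap; COL1A2, COL3A1, DCN and LUM were not listed in the table. Mitochondrial genes took 2.89% to 4.90% of gene reads across ALDH high 1 to 3 against 2.01% to 4.55% across ALDH low 1 to 3. The part of these values in the results was not tested.

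Some libraries lay close to each other across the groups. Across the 46 genes, the median absolute log2 difference was 0.051 between ALDH high 1 and 3, 0.057 between ALDH high 1 and ALDH low 2, and 0.082 between ALDH high 3 and ALDH low 2. In the other 12 pairs of libraries it ran from 0.185 to 0.516. The same pairs were closest over the 7965 genes averaging 500 normalized reads or more, at 0.070, 0.075 and 0.091, against 0.181 to 0.359. ALDH high 2, ALDH low 1 and ALDH low 3 are in none of the close pairs, and counts are also given without each of them.

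No proteasome gene passed an adjusted p of 0.05 between the groups (limma, smallest adjusted p over the 46 genes 0.984), and 0% of all 16000 genes did. edgeR and DESeq2 also called 0 of the 46. The difference lay below 0, that is, towards lower values in ALDH high, in 34 of the 46 genes, against 47.7% of all genes. It lay below 0 in 32 genes with total-count scaling and in 28 when mitochondrial genes were also left out of the totals. The median log2 difference was −0.11, against 0.02 over all genes and −0.01 over those 7965 better expressed genes, of which 52.5% lay below 0. With total-count scaling the median was −0.07 over the 46 genes, against 0.06 over all genes. With no mitochondrial genes in the totals these medians were −0.05 and 0.07, so all genes moved along with the members. Of the 46 genes, 5 had an unadjusted limma p under 0.05 and all 5 were lower in ALDH high, where 2.11% of all genes met that rule in either direction and 0.738% in that one. That count of 5 was 2 with total-count scaling and 1 when the totals also held no mitochondrial genes. It was 0 once ALDH high 2 was left out and 7 once ALDH low 2 was. Shares over all genes are not given for these fits, so these counts cannot be set against a background. The groups did not overlap in 9 genes, all lower in ALDH high, which is 19.6% of the members against 3.32% of all genes, while 0 members and 3.68% of all genes were higher without overlap. Those 9 were PSMA2, PSMA3, PSMA4, PSMA6, PSMC1, PSMC2, PSMD6, PSMD10 and PSMD12. With either total-count scaling PSMA6, PSMD6 and PSMD12 overlapped and 6 remained apart, against 2.51% of all genes, or 2.23% when the totals held no mitochondrial genes. For 45 of the 46 genes, all but PSMB8, the whole 95% interval was inside a 2-fold change, up or down. The same held for 7782 of the 7965 better expressed genes and for 11958 of all 16000. RNA from a bulk sample cannot tell fewer cells that express a gene from less RNA per cell.

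**Figure D1:**
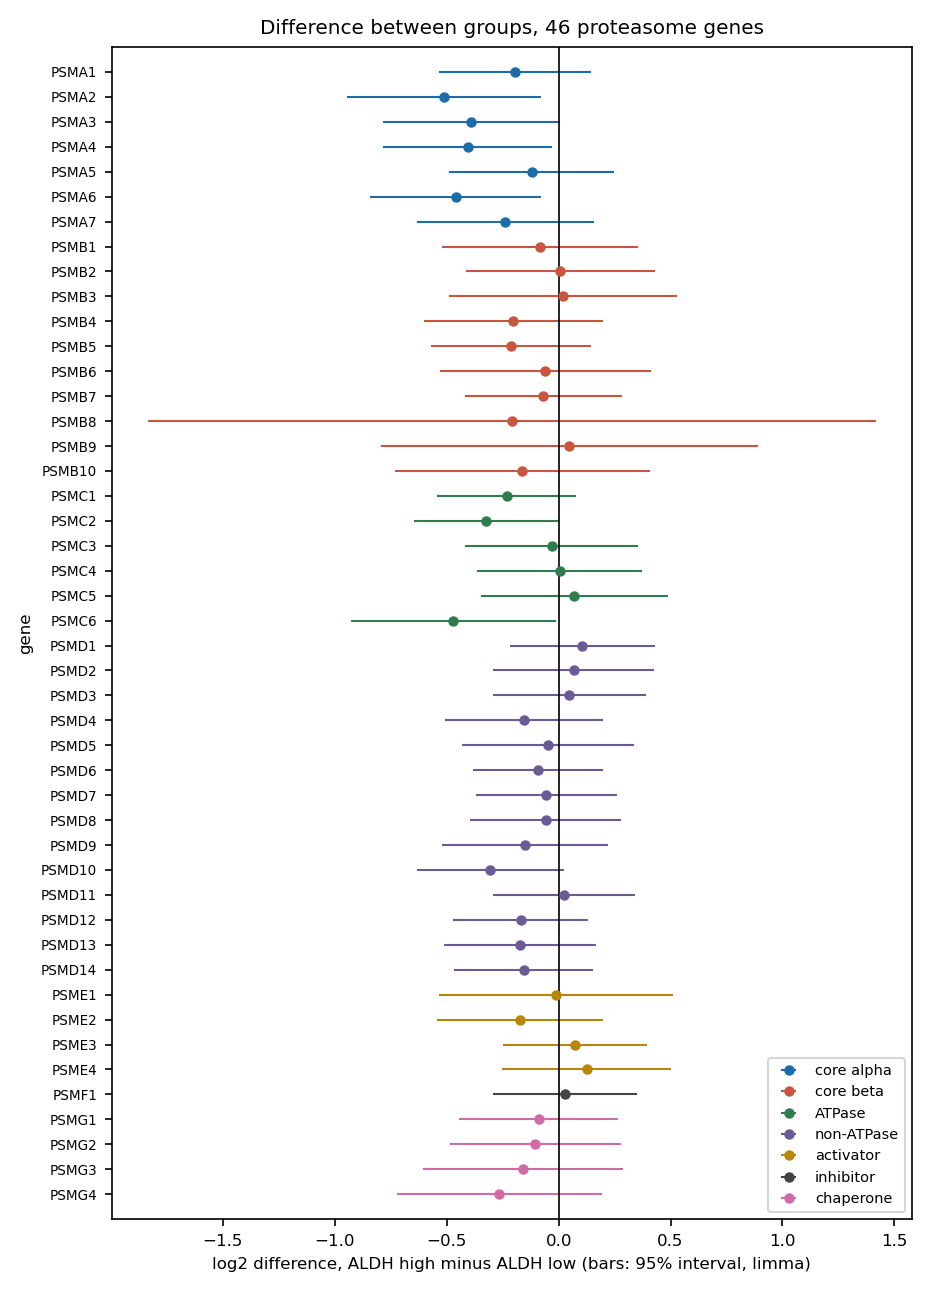
Log2 difference between ALDH high and ALDH low for each of the 46 proteasome genes (x axis; points, limma estimate; bars, 95% interval), coloured by subunit class. All 7 core alpha subunits lie below 0, and the interval excludes 0 in 5 genes, PSMA2, PSMA4, PSMA6, PSMC2 and PSMC6. Over all 16000 genes it excludes 0 in 338.

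The lower values rested on single libraries to different degrees. Without ALDH low 3, 23 of the 46 genes lay below 0 and the median was 0.003. Without ALDH low 1, 43 lay below 0 with a median of −0.20, and without ALDH high 2, 28 with a median of −0.04. Without both libraries numbered 2, a choice made after seeing the data, 28 lay below 0 with a median of −0.06. Genes lower in ALDH high without overlap, easier to reach with fewer libraries, numbered 11 without ALDH high 1 (6.34% of all genes), 10 without ALDH high 2 (9.94%) and 10 without ALDH high 3 (5.31%). They numbered 14 without ALDH low 1 (6.19%), 14 without ALDH low 2 (14.2%), 10 without ALDH low 3 (7.33%) and 15 without both libraries numbered 2 (23.5%). The 7 core alpha subunits were below 0 in the fit with all libraries and in each of 18 alternatives. Among these alternatives, no variance trend, a replicate block and a mean of at least 50 cannot change the difference of a gene that is kept.

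The alpha subunits form the outer rings of the core, whose tails close the gate to the cutting chamber. They had the lowest class median, −0.39. Of the 7, 4 were lower in ALDH high without overlap, against 3.32% of all genes. With either total-count scaling PSMA6 overlapped, and PSMA2, PSMA3 and PSMA4 remained apart. PSMA2 (chromosome 7, 42916857 to 42932223) had 732, 496 and 718 normalized reads across ALDH high 1 to 3 against 878, 810.2 and 1065 across ALDH low 1 to 3. Its log2 difference was −0.51 (95% interval −0.95 to −0.078), the largest of the class, with an unadjusted limma p of 0.0251. ALDH high 2 was its lowest library and ALDH low 3 its highest. Exons of other genes cover 14.6% of its exon bases on the same strand and 20% on the other strand, where MRPL32 lies. Also, 3 pseudogenes are named after it. Per the labels only reads unique to an exon region were counted, so some of its reads may be missing and its level is uncertain.

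PSMA6 (chromosome 14, 35278633 to 35317493) had 3799.6, 2852 and 3188 normalized reads across ALDH high 1 to 3 against 5431, 4035 and 4106 across ALDH low 1 to 3, a log2 difference of −0.46 (95% interval −0.84 to −0.078). PSMA4 (chromosome 15, 78540405 to 78552419) had 5272, 3949 and 4791 across ALDH high 1 to 3 against 7209.5, 5333 and 6040.2 across ALDH low 1 to 3, a difference of −0.41 (95% interval −0.78 to −0.029). PSMA3 (chromosome 14, 58244831 to 58272012) had 2519, 2021 and 2539.9 across ALDH high 1 to 3 against 3853, 2604 and 2899.6 across ALDH low 1 to 3, a difference of −0.39 (95% interval −0.79 to 0.007). In these 3 genes ALDH low 1 was the highest library and ALDH high 2 the lowest. The gap between the groups was narrow in PSMA3 and PSMA4, with 5333 in ALDH low 2 and 5272 in ALDH high 1 for PSMA4. Another gene on the same strand covers 14.1% of PSMA6's exon bases, and 4 pseudogenes are named after it. The unadjusted limma p of PSMA6, PSMA4 and PSMA3 was 0.0227, 0.0373 and 0.0534.

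The other 3 alpha subunits overlapped between groups. PSMA7, the most abundant proteasome gene per length, had 17322, 14669 and 16992 normalized reads across ALDH high 1 to 3 against 18247, 16616 and 23356 across ALDH low 1 to 3, a log2 difference of −0.24 (95% interval −0.63 to 0.16). PSMA1, of whose exon bases 24.7% are shared with another gene on its strand, averaged 3385 ± 277 (ALDH high) against 3892 ± 518 (ALDH low) (SD, n = 3 each), a difference of −0.20. PSMA5 had the smallest difference of the class, −0.12 (95% interval −0.49 to 0.25), with 4650.0, 3744 and 4672 normalized reads across ALDH high 1 to 3 against 4013, 4758 and 5470.4 across ALDH low 1 to 3. In PSMA1, PSMA5 and PSMA7, ALDH low 3 was the highest library and ALDH high 2 the lowest.

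**Figure D2:**
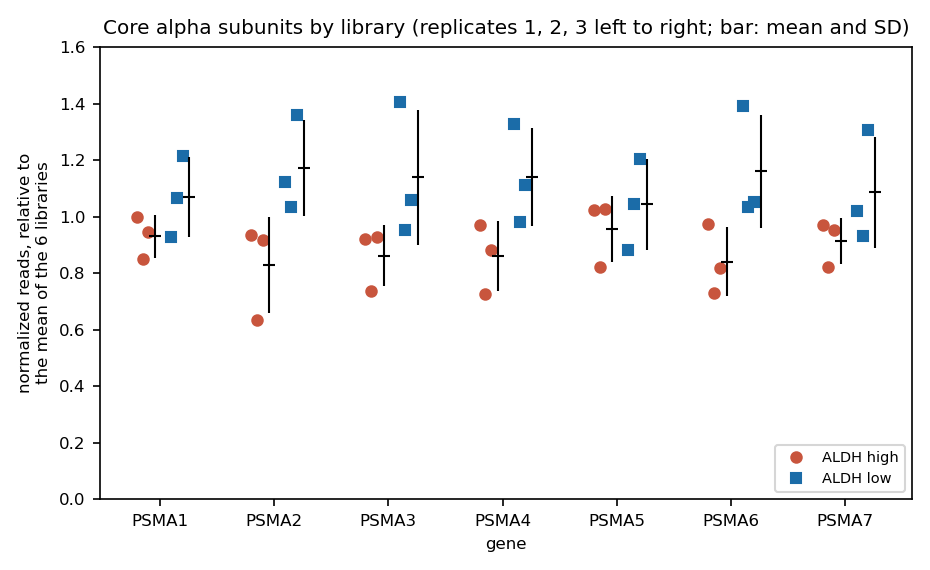
Normalized reads of the 7 core alpha subunits in each library, divided by the gene's mean over the 6 libraries (y axis; circles, ALDH high; squares, ALDH low; replicates 1 to 3 from left to right; bars, mean and SD of 3 samples). ALDH high 2 is the lowest library in all 7 genes, and the groups do not overlap in PSMA2, PSMA3, PSMA4 and PSMA6.

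The promoters of PSMA2 and PSMA3, which have a single window each, are shown as examples of the 4 alpha subunits without overlap. Sequences are from RefSeq (GRCh38.p14), 250 bases before to 50 after the annotated start, 5′ to 3′ on the gene's strand, and windows were found for 40 of the 46 genes. Windows of PSMA7, PSMB1, PSMB6, PSMB7, PSMD4 and PSMG3 were not used here. Capitals mark matches on either strand to CCAAT, the box bound by NF-Y, to TGACNNNGC, a core of the antioxidant response element bound by NFE2L1 and NFE2L2, and to the core of interferon-stimulated response elements, GAAA, any 2 bases and GAAA again.
PSMA2, chr7:42932125-42932424, minus strand: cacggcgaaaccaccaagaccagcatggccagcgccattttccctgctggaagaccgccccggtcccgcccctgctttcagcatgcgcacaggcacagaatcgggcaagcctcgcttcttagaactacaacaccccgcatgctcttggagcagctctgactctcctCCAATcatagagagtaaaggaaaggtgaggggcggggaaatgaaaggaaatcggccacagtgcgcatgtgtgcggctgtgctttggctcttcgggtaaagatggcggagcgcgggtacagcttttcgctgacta
PSMA3, chr14:58244593-58244892, plus strand: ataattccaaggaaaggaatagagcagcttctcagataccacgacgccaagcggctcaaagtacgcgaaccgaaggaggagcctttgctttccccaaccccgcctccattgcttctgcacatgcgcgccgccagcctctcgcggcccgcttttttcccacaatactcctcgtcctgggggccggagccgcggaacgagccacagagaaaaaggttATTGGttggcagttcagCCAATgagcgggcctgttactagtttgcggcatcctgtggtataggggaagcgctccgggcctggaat
Positions are of the first base, counted from the annotated start. PSMA2 had 1 CCAAT match, at −84 on the gene's strand. PSMA3 had CCAAT matches at −35 on the reverse strand and at −18. CCAAT occurred in 19 of the 49 member windows (38.8%) and in 34.6% of all 35116 promoter windows of that length. Counted by gene, it was in a window of 19 of the 40 members, and of 6 of the 9 without overlap, namely PSMA2, PSMA3, PSMA4 (in 1 of its 3 windows), PSMC2, PSMD6 and PSMD10. TGACNNNGC occurred in 15 member windows (30.6%), each of another gene, and in 13.3% of all windows. It was present for 2 of the 9 genes without overlap, PSMA4 and PSMD12, and the interferon-stimulated core for 1, PSMA4. PSMA6 and PSMC1, which also did not overlap, had no match to any of the 3 motifs in their windows. A match describes letters and no measured binding.

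The beta subunits form the inner rings. Their class median was −0.08, with 7 of 10 below 0, and all 10 overlapped between groups. The median was 0.066 without ALDH high 2, 0.069 when ALDH low 3 was left out and −0.25 without ALDH low 1, so its sign rested on single libraries. PSMB5, which cuts after hydrophobic residues (chromosome 14, 23016543 to 23035230), had 5892, 5650.2 and 6181 normalized reads across ALDH high 1 to 3 against 6553, 5896 and 8284 across ALDH low 1 to 3, the most negative difference of the class at −0.21 (95% interval −0.57 to 0.15). Without ALDH low 3 its 2 remaining ALDH low values stood at 6553 and 5896, and the latter lay among the ALDH high values. PSMB6, which cuts after acidic residues (chromosome 17, 4796144 to 4798503), had 5489, 4523 and 6103 across ALDH high 1 to 3 against 4269, 5331 and 7538 across ALDH low 1 to 3, a difference of −0.060 (95% interval −0.53 to 0.41). PSMB7, which cuts after basic residues (chromosome 9, 124353466 to 124415444), had 5542, 4529.9 and 5580.4 across ALDH high 1 to 3 against 4784, 5503 and 6139 across ALDH low 1 to 3, a difference of −0.069 (95% interval −0.42 to 0.28). In PSMB6 the lowest and the highest values were both ALDH low, in libraries 1 and 3.

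The structural beta subunits spread in the same way. PSMB3 (chromosome 17, 38752736 to 38764231) had 7679, 5573 and 8288 normalized reads across ALDH high 1 to 3 against 5116, 7223 and 9204 across ALDH low 1 to 3, with a log2 difference of 0.020 (95% interval −0.49 to 0.53). ALDH low 1 was its lowest library and ALDH low 3 its highest. PSMB2 had 4441, 3717 and 4368 across ALDH high 1 to 3 against 3130.0, 4471 and 5068 across ALDH low 1 to 3, a difference of 0.008. PSMB1 averaged 6255 ± 1119.7 (ALDH high) against 6654 ± 1352 (ALDH low) (SD, n = 3 each), a difference of −0.085, and PSMB4 9670.5 ± 908 (ALDH high) against 11251 ± 2425 (ALDH low), a difference of −0.20. The differences of PSMB2 and PSMB3 lay below 0 with edgeR and DESeq2, as did that of PSMC4, so these signs depend on the tool.

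The PSMB3 window held 1 TGACNNNGC match and 2 CCAAT matches, at −104, −55 and −13, all on the gene's strand, and is shown for contrast with the alpha subunits.
PSMB3, chr17:38752491-38752790, plus strand: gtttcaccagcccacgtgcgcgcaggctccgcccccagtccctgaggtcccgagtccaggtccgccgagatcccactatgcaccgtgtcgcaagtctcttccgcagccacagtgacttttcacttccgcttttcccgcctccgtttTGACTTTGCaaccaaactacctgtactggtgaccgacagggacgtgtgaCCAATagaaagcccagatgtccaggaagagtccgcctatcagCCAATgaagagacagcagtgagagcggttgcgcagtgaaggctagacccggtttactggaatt

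Alpha and beta subunits are needed in equal number in the core, while their transcripts varied apart in 1 library. Summed normalized reads of the 7 alpha subunits divided by those of the 7 standard beta subunits (PSMB1 to PSMB7) came to 0.825, 0.820 and 0.761 across ALDH high 1 to 3, against 1.11, 0.840 and 0.815 across ALDH low 1 to 3. ALDH low 1 stood above all others in this ratio, with a low beta sum (38821, against 37602 to 58128 over the libraries) beside an alpha sum of 43012. In ALDH high 2 both sums were the lowest of the 6 libraries, at 30817 and 37602. Across 7828 better expressed genes, the deviation of ALDH low 1 from a gene's mean had a Pearson r of −0.51 with transcript GC content. Median GC content was 42.1% in the alpha and 52.7% in all beta subunits. The part of base composition in this ratio was not tested.

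The immunoproteasome subunits were expressed at low levels. PSMB8 (chromosome 6, 32840717 to 32844703) had 8.38, 2.74 and 21.7 normalized reads across ALDH high 1 to 3 against 4.33, 11.7 and 17.1 across ALDH low 1 to 3, which rest on 8, 3, 19, 5, 12 and 16 recovered reads in that order. Its log2 difference of −0.21 (95% interval −1.83 to 1.42) had the widest interval of all members, and 20.6% of its exon bases are shared with genes on the other strand, PSMB8-AS1 and PSMB9. PSMB9 (chromosome 6, 32844136 to 32859585) had 107, 44.7 and 105 across ALDH high 1 to 3 against 61.5, 106 and 69.6 across ALDH low 1 to 3, a difference of 0.047 (95% interval −0.79 to 0.89). It was high in ALDH high 1, ALDH high 3 and ALDH low 2 and lower in the other libraries of both groups. PSMB10 (chromosome 16, 67934502 to 67937087) had 206, 159 and 182 across ALDH high 1 to 3 against 175, 165 and 289 across ALDH low 1 to 3, a difference of −0.16 (95% interval −0.73 to 0.41), and another gene on its strand covers 34.8% of its exon bases.

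Levels of different genes were compared per kilobase of merged exons. PSMB5 averaged 3347 ± 150.4 normalized reads per kilobase (ALDH high) against 3916 ± 699 (ALDH low; SD, n = 3 each), and PSMB8 3.65 ± 3.25 and 3.69 ± 2.14. PSMB6 averaged 3709.6 ± 550.2 and 3945 ± 1152, and PSMB9 27.9 ± 11.5 and 25.8 ± 7.79. PSMB7 averaged 2919.7 ± 333 and 3064 ± 379, and PSMB10 98.4 ± 12.8 and 113 ± 37.2. As a share of its catalytic pair, PSMB8 made up 0.106% ± 0.091 (ALDH high) against 0.092% ± 0.046 (ALDH low), PSMB9 0.726% ± 0.233 and 0.680% ± 0.249, and PSMB10 3.26% ± 0.210 and 3.52% ± 0.774. The group means differed by less than the SD within ALDH low for each pair, but for PSMB10 by more than the SD within ALDH high. With the length of the principal transcript, a choice made after seeing the data, PSMB9's share was 1.66% and 1.56%.

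**Figure D3:**
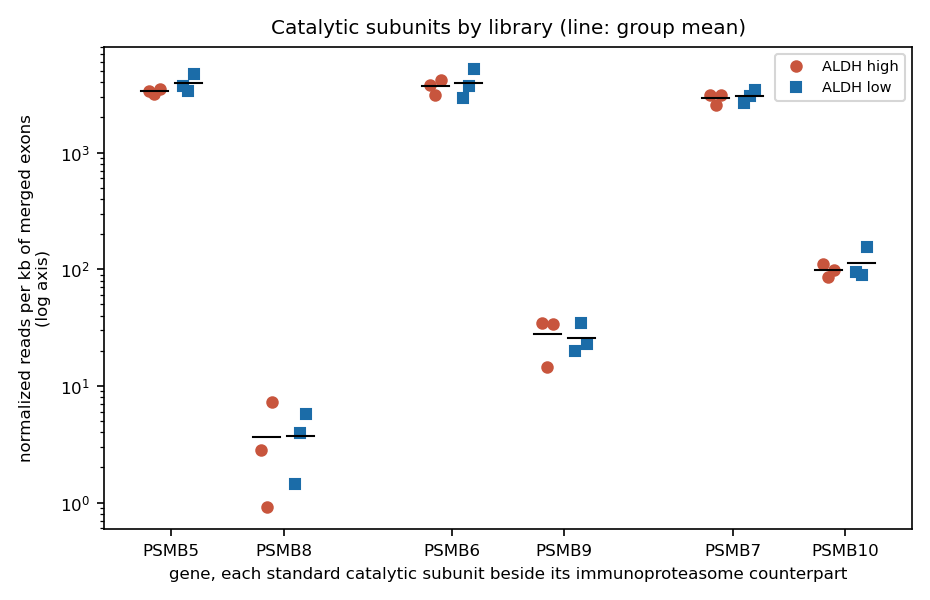
Normalized reads per kilobase of merged exons (log axis) of the standard catalytic subunits PSMB5, PSMB6 and PSMB7 and of their immunoproteasome counterparts PSMB8, PSMB9 and PSMB10, with each library as a point and the group mean as a line. Each standard subunit lies above its counterpart in every library, and the points of ALDH high and ALDH low overlap in all 6 genes.

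Among the genes that border this pathway, TAP1, which shares its promoter region with PSMB9 and encodes a peptide transporter, had 1437, 1340.2 and 1419.7 normalized reads across ALDH high 1 to 3 against 1528, 1325 and 1444 across ALDH low 1 to 3. Its log2 difference was −0.032 (95% interval −0.34 to 0.28). B2M, the light chain of MHC class I, had 6870.3, 6448 and 6385 across ALDH high 1 to 3 against 13326, 6736 and 9499 across ALDH low 1 to 3, a difference of −0.53 (95% interval −1.02 to −0.038) with an unadjusted limma p of 0.0372, and its groups overlapped. Of the 9 antigen processing genes listed, limma called 0 at its threshold for the whole table, with 3 above 0 and 6 below.

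Interferon-inducible members carried the interferon-stimulated core in 4 of the 5 cases, PSMB8, PSMB10, PSME1 and PSME2, but not PSMB9. It was found in 7 of the 49 member windows (14.3%), which belong also to PSMA4, PSMB4 and PSMG4, and in 3.57% of all windows. The windows of these 4 genes with a match are shown because their levels differ widely.
PSMB8, chr6:32843998-32844297, minus strand: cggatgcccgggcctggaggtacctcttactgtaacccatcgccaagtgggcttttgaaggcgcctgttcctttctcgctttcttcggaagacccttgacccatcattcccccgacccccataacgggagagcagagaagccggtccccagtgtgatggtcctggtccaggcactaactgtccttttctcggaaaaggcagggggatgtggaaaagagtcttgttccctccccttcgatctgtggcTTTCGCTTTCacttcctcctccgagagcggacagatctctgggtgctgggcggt
PSMB10, chr16:67936801-67937100, minus strand: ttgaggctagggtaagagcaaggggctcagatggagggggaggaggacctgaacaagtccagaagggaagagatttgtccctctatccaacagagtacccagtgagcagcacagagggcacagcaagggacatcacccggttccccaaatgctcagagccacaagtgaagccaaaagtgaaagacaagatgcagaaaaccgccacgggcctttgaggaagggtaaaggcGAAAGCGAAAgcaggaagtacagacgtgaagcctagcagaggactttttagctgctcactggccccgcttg
PSME1, chr14:24135944-24136243, plus strand: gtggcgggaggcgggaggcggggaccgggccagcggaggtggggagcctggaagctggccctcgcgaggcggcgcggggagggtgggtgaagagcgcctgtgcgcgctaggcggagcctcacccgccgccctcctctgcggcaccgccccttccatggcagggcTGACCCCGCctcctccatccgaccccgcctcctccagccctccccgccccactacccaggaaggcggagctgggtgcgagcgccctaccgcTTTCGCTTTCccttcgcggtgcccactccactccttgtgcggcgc
PSME2, chr14:24146561-24146860, minus strand: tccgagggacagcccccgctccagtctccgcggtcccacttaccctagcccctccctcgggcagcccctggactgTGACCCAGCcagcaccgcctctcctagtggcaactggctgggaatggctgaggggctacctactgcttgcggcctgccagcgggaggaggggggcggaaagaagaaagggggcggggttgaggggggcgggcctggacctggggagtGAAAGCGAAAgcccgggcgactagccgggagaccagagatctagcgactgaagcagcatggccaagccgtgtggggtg
The match begins at −4 in PSMB8, on the reverse strand, at −21 in PSMB10, at 6 on the reverse strand in PSME1 and at −28 in PSME2. PSME1 and PSME2 have also a TGACNNNGC match, at −86 and −175. The second window of PSMB8 has no match to any of the 3 motifs.

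The ATPases form the ring that unfolds the substrate and threads it into the core. Their class median was −0.13, with 4 of 6 below 0, and −0.043 without ALDH low 3. PSMC2 (chromosome 7, 103344254 to 103369395) had 3539, 3279 and 3529 normalized reads across ALDH high 1 to 3 against 4786, 3766 and 4459 across ALDH low 1 to 3, a log2 difference of −0.32 (95% interval −0.65 to −0.001) with an unadjusted limma p of 0.0496, and the groups did not overlap. PSMC1 (chromosome 14, 90256495 to 90275429) had 2123, 2189 and 2109 across ALDH high 1 to 3 against 2699, 2252 and 2616 across ALDH low 1 to 3, also without overlap, and a difference of −0.23 (95% interval −0.54 to 0.076). Exons of NRDE2 on the other strand cover 75.8% of PSMC1's merged exon bases, and 13 pseudogenes are named after it, so its reads are uncertain. PSMC6 (chromosome 14, 52707172 to 52728587) had 2024, 1713 and 1806 across ALDH high 1 to 3 against 3514, 1937 and 2453 across ALDH low 1 to 3, the most negative difference of the class at −0.47 (95% interval −0.93 to −0.013) with an unadjusted limma p of 0.0449. It overlapped, because ALDH low 2 lay below ALDH high 1.

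In the remaining ATPases, ALDH low 1 lay below ALDH low 3. PSMC5 (chromosome 17, 63827152 to 63832026) had 6151, 5680.3 and 6185 normalized reads across ALDH high 1 to 3 against 4275, 6226 and 7014 across ALDH low 1 to 3 and the highest difference of the class, 0.070 (95% interval −0.35 to 0.49). Its lowest library was ALDH low 1 and its highest ALDH low 3. PSMC3 averaged 6624 ± 544 (ALDH high) against 6846 ± 1383 (ALDH low) (SD, n = 3 each), a difference of −0.031, and PSMC4 5656 ± 97.3 (ALDH high) against 5711 ± 1132 (ALDH low), a difference of 0.005. In both, ALDH low 1 was the lowest library and ALDH low 3 the highest, whereas in PSMC1, PSMC2 and PSMC6 ALDH low 1 was the highest. The ring holds 1 copy of each ATPase.

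The non-ATPase subunits varied by a median SD of 0.14 (log2) over the 6 libraries. It was 0.29 for the alpha and 0.28 for the beta subunits, 0.21 for the ATPases and the activators, and 0.24 for the chaperones. The beta value includes the weakly expressed PSMB8, PSMB9 and PSMB10, at 1.01, 0.52 and 0.32. Over the 7965 genes averaging 500 normalized reads or more, the median SD was 0.21. In 24 of the 46 members the SD was below the median of genes within 2-fold of the same level. The median difference of the non-ATPase subunits was −0.08, with 10 of 14 below 0, and −0.0072 without ALDH low 3. Leaving out ALDH high 3 gave −0.12, and it was −0.031 with total-count scaling and −0.015 when the totals also held no mitochondrial genes. PSMD10 (chromosome X, 108084207 to 108091618), also known as gankyrin and a chaperone of the ATPase ring, had 2392, 2229.8 and 2136 normalized reads across ALDH high 1 to 3 against 3022, 2394 and 2972 across ALDH low 1 to 3, the most negative difference of the class at −0.31 (95% interval −0.63 to 0.024), without overlap. PSMD12, a lid subunit (chromosome 17, 67337916 to 67366627), had 2510.4, 2403 and 2314 across ALDH high 1 to 3 against 2932, 2644 and 2557 across ALDH low 1 to 3, a difference of −0.17 (95% interval −0.47 to 0.13). PSMD6, a lid subunit (chromosome 3, 64010549 to 64024010), had 3236, 3156 and 3348 across ALDH high 1 to 3 against 3466, 3350.1 and 3576 across ALDH low 1 to 3, a difference of −0.093 (95% interval −0.38 to 0.20). These groups did not overlap either, though in PSMD6 the gap was narrow, with 3348 in ALDH high 3 and 3350.1 in ALDH low 2.

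PSMD1, a scaffold of the base (chromosome 2, 231056864 to 231172827), had the highest difference of the class, 0.11 (95% interval −0.22 to 0.43), with 3456, 3805 and 3458 normalized reads across ALDH high 1 to 3 against 2928, 3718 and 3348 across ALDH low 1 to 3. PSMD2, the other large scaffold and ubiquitin-binding subunit, averaged 15034 ± 673 (ALDH high) against 14434 ± 1988 (ALDH low) (SD, n = 3 each), a difference of 0.067. PSMD3 and PSMD11, lid subunits, also lay above 0, at 0.048 and 0.025. PSMD14, the enzyme that removes ubiquitin chains from substrates, averaged 2748 ± 187 (ALDH high) against 3064 ± 227 (ALDH low), a difference of −0.16. PSMD7, its partner, of whose exon bases 30.7% are shared with a gene on the other strand, averaged 3085 ± 132 (ALDH high) against 3216 ± 349 (ALDH low), and PSMD4, a ubiquitin receptor, 6122 ± 363 (ALDH high) against 6871 ± 1140.0 (ALDH low), with differences of −0.055 and −0.16. PSMD8 and PSMD13 of the lid differed by −0.057 and −0.17, and the base chaperones PSMD5 and PSMD9 by −0.049 and −0.15. All of these overlapped between groups.

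Activators cap the core in place of the regulatory particle. PSME1 (chromosome 14, 24136158 to 24138967) and PSME2 (chromosome 14, 24143362 to 24147570) encode the interferon-inducible pair found mainly in the cytosol. PSME1 had 4166, 3839 and 4565 normalized reads across ALDH high 1 to 3 against 3042, 3888 and 6314 across ALDH low 1 to 3, a log2 difference of −0.011 (95% interval −0.53 to 0.51), and its lowest and highest values were both in ALDH low. PSME2 had 3262, 3061 and 3157 across ALDH high 1 to 3 against 3187, 3144 and 4505 across ALDH low 1 to 3, the most negative difference of the class at −0.17 (95% interval −0.54 to 0.20), with ALDH low 3 above all others. PSME3, a nuclear activator, averaged 4346 ± 78.6 (ALDH high) against 4152 ± 525 (ALDH low) (SD, n = 3 each), a difference of 0.073. PSME4, a large nuclear activator (chromosome 2, 53864067 to 53970840), had 2142, 2869 and 2059.8 normalized reads across ALDH high 1 to 3 against 2232, 2321 and 1879.9 across ALDH low 1 to 3, the highest difference of all 46 genes at 0.13 (95% interval −0.25 to 0.50). Its highest library was ALDH high 2 and its lowest ALDH low 3, the reverse of PSME2. PSMF1, which encodes an inhibitor that binds the core, had 2264, 2573 and 2412 normalized reads across ALDH high 1 to 3 against 2097, 2435 and 2602 across ALDH low 1 to 3, a difference of 0.027 (95% interval −0.30 to 0.35).

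The chaperones PSMG1 to PSMG4 work as pairs, PSMG1 with PSMG2 and PSMG3 with PSMG4, to build the alpha ring. All 4 lay below 0, with a median of −0.13, and all overlapped. The median was −0.023 without ALDH high 2, where PSMG1 and PSMG2 lay above 0, and −0.027 without ALDH low 3, where PSMG2 and PSMG3 did. PSMG4 (chromosome 6, 3231403 to 3303373) had 599, 459 and 649 normalized reads across ALDH high 1 to 3 against 783, 528 and 749 across ALDH low 1 to 3, the most negative at −0.26 (95% interval −0.72 to 0.19). PSMG1 had 1072, 869 and 1134 across ALDH high 1 to 3 against 988, 1146 and 1122 across ALDH low 1 to 3, the least at −0.088 (95% interval −0.44 to 0.27). PSMG2 differed by −0.10 and PSMG3 by −0.16. In each of the 4 genes ALDH high 2 was the lowest library, as it was for the 7 alpha subunits. POMP, the maturation factor that joins the core's parts but lies outside the symbol rule, had 4077, 2972 and 3734 normalized reads across ALDH high 1 to 3 against 4207, 4341 and 4585 across ALDH low 1 to 3, without overlap, and a log2 difference of −0.30 (95% interval −0.64 to 0.050).

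**Figure D4:**
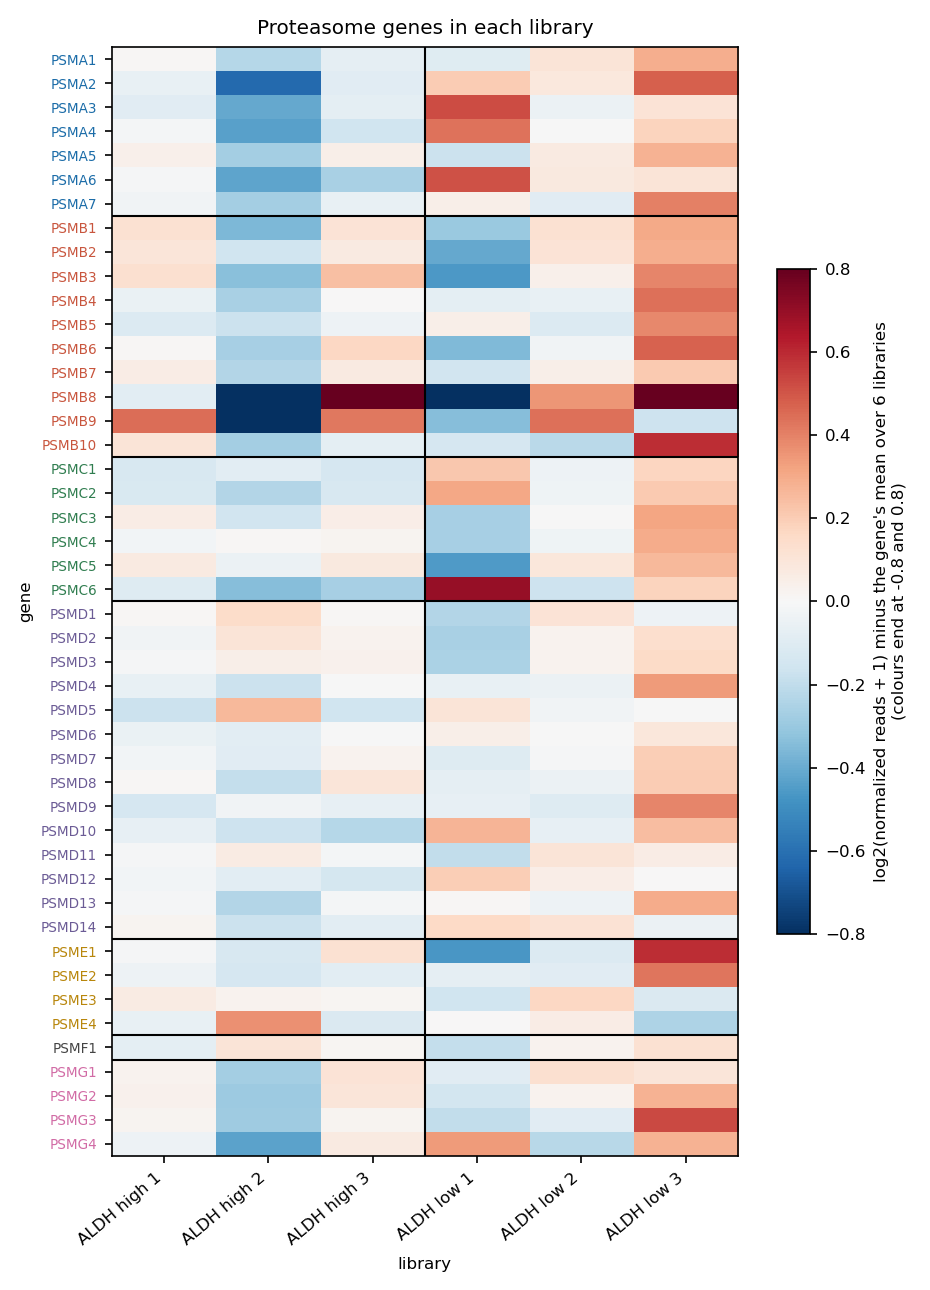
Log2(normalized reads + 1) of each of the 46 proteasome genes (rows, grouped by class) in each library (columns), as the deviation from the gene's mean over the 6 libraries (red, higher; blue, lower). ALDH low 3 is the highest library in 28 genes and ALDH high 2 the lowest in 26, while ALDH low 1 is the highest in 10 and the lowest in 14. Over the 7965 genes averaging 500 normalized reads or more, ALDH low 3 is the highest in 2823 and ALDH high 2 the lowest in 1616. ALDH low 1 is the highest in 1577 of those 7965 and the lowest in 2050.

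Across all 46 genes, 28 were highest in ALDH low 3 and 10 in ALDH low 1, while 26 were lowest in ALDH high 2 and 14 in ALDH low 1. Of the 7965 genes averaging 500 normalized reads or more, 2823 were highest in ALDH low 3 and 1577 in ALDH low 1. Lowest in ALDH high 2 were 1616 of those 7965, and 2050 were lowest in ALDH low 1. For the 46 genes, the median deviation from a gene's mean over the libraries was −0.014, −0.18 and 0.0066 across ALDH high 1 to 3, against −0.093, −0.0014 and 0.25 across ALDH low 1 to 3. ALDH low 1 exceeded ALDH low 3 in 12 genes, namely PSMA3, PSMA4, PSMA6, PSMC1, PSMC2, PSMC6, PSMD5, PSMD10, PSMD12, PSMD14, PSME4 and PSMG4. Proteasome genes together took 0.738%, 0.680% and 0.729% of gene reads across ALDH high 1 to 3 against 0.711%, 0.751% and 0.792% across ALDH low 1 to 3. The 95% Wilson interval of the ALDH high 2 share was 0.677% to 0.683% and that of the ALDH low 3 share 0.789% to 0.795%, which cover counting error alone. The group means, 0.716% ± 0.031 and 0.752% ± 0.040 (SD, n = 3 each), differed by less than the SD within ALDH low and by more than that within ALDH high.

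Base composition differed between genes with different library patterns. The principal transcript had a median GC content of 41.5% in the 12 genes with ALDH low 1 above ALDH low 3 and of 52.1% in the other 34. It was 41.5% in the 9 genes without overlap and 52.1% in the other members, and 42.1% in the alpha against 52.7% in the beta subunits. Across the 46 genes, the deviation in ALDH low 1 had a Pearson r of −0.57 with GC content, and that in ALDH low 3 one of 0.43. Across the 7828 genes of that expression with a principal transcript, the same values were −0.51 and 0.42. With log2 transcript length, ALDH high 2 had r = 0.51 and ALDH low 3 r = −0.44 across the 46 genes, and 0.65 and −0.65 across the 7828. These correlations are across genes of the same libraries and are descriptions. For the difference between the groups, r with GC content was 0.39 across the 46 genes and 0.12 across the 7828, and r with log2 transcript length was 0.15 and 0.48. The part of base composition and length in the differences of the alpha subunits was not tested.

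**Figure D5:**
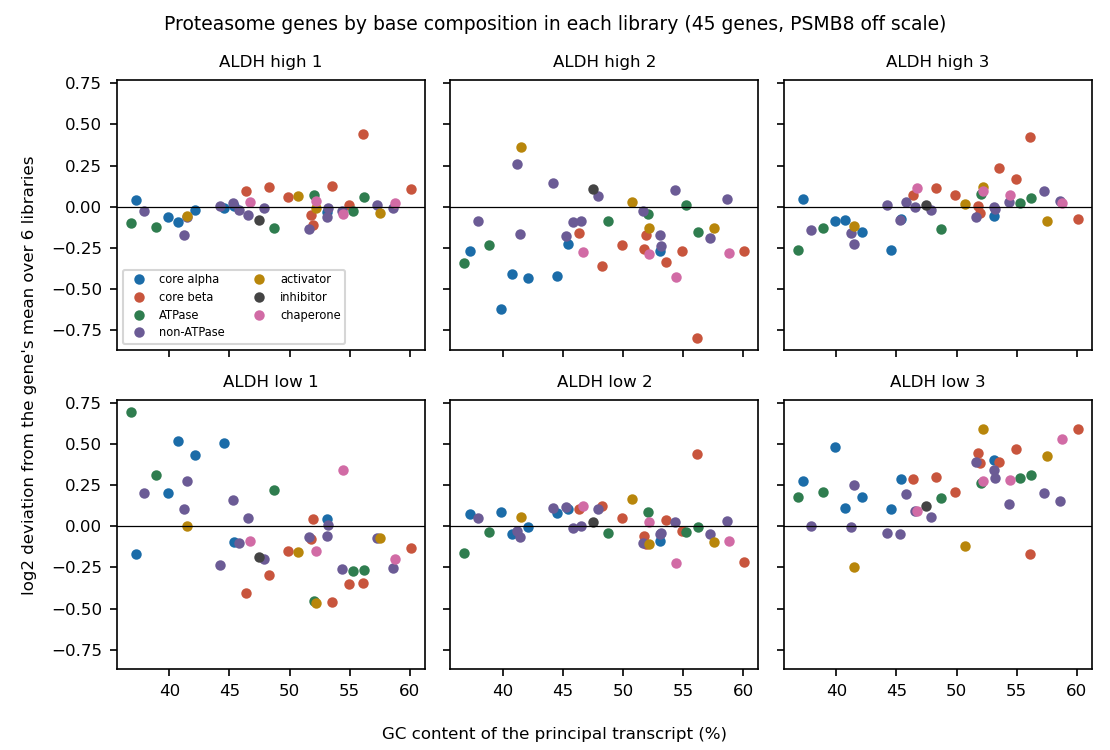
GC content of the principal transcript (x axis, percent) against the log2 deviation from the gene's mean over the 6 libraries (y axis) for 45 proteasome genes in each library, coloured by class; PSMB8 is off scale. The points slope down in ALDH low 1 (r = −0.57 over all 46 genes) and up in ALDH low 3 (r = 0.43).

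Subunits of the core, though assembled in equal number, differed widely in transcript level. Per kilobase of merged exons, the mean of PSMA7 over the 6 libraries, 10210 normalized reads, was 69.6 times that of PSMA2, 147, the highest and the lowest of the 14 standard core genes. With the length of the principal transcript, 1.75 kb of merged exons becoming 0.996 kb in PSMA7 and 5.34 kb becoming 1.49 kb in PSMA2, the ratio was 34.1. Both ratios rest on PSMA2, which shares exon bases with other genes, so its level is uncertain. The next lowest core gene was PSMA6, at 600 per kilobase of merged exons. With the principal transcript it was PSMA5, at 1220 per kilobase, against 17939 for PSMA7. PSMA7 was the highest of all 46 genes and PSMB8 the lowest by either length. The mean of PSMB8 was 3.67 normalized reads per kilobase of merged exons.

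Genes that work with the proteasome were listed beside the members. Of 16 partners outside the symbol rule, limma called 0 in either direction at its threshold for the whole table, with 5 above 0 and 11 below. ADRM1 and SEM1, subunits of the regulatory particle, averaged 5665 ± 323 (ALDH high) against 6123 ± 1437 (ALDH low) and 3123 ± 301 (ALDH high) against 3602 ± 1327 (ALDH low) (SD, n = 3 each), with log2 differences of −0.089 and −0.15. USP14 and UCHL5, deubiquitinases bound to it, differed by −0.074 (95% interval −0.42 to 0.27) and −0.16 (95% interval −0.49 to 0.18). Of 11 genes that control proteasome transcription, 0 passed, with 4 above 0 and 7 below. NFE2L1, which restores proteasome genes when degradation fails, had 5645, 8874 and 5816 normalized reads across ALDH high 1 to 3 against 9186, 5803 and 6235 across ALDH low 1 to 3, a log2 difference of −0.063 (95% interval −0.56 to 0.44). It was high in ALDH high 2 and ALDH low 1, so its order over libraries did not follow the groups. Of the 4 ubiquitin genes, 2 activating enzymes and 12 of 13 shuttle and VCP genes found in the table, 0 passed, and the shuttle and VCP list had 10 above 0 and 2 below. Over the 6 lists, 1 of 54 genes, B2M, had an unadjusted limma p under 0.05, as did 2.11% of all genes.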

How the data were processed

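RNA of 6 LNCaP samples, 3 ALDH high and 3 ALDH low, was sequenced after poly(A) selection, per the labels. The submitters' processing notes name Trimmomatic 0.36 for trimming reads, the aligner STAR 2.5.2b, featureCounts from Subread 1.5.2, DESeq2 and GRCh38, and per the labels' protocols only reads unique to an exon region entered a gene's count. No source used here says whether strand was kept. The authors' deposited values are a normalized signal for each gene in each library (reads divided by a size factor), their log2 fold change (positive where ALDH low is higher), and their p-value with its adjusted value. The authors' deposited table gives an adjusted p under 0.05 to 0 proteasome genes. By the authors' deposited table, 6 have an unadjusted p under 0.05, and 37 of 46 are higher in ALDH low. The table has 16046 rows, 46 of them spike-ins, and a lowest row mean of 9.65.

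Whole reads were recovered from the step of each library, with at least 99.99% of values whole within 0.02 of a read. The main test was limma 3.58.1 (R 4.3.3) on log2(signal + 1) of all 16000 genes, with variance allowed to depend on the mean, with no filter and Benjamini-Hochberg adjustment at 0.05. It understates the change of low genes, and p-values measure no more than sample-to-sample spread here, which may be technical. edgeR 4.0.16 (quasi-likelihood), DESeq2 1.42.0 and limma-voom on the recovered reads were alternatives. GENCODE release 29 gave coordinates (GRCh38, counted from 1), lengths and GC content. The limma, edgeR, DESeq2, voom and blocked fits were tested on simulated data. Other alternatives were pseudocounts of 0.5 and 5, no variance trend, a mean of at least 50, total-count scaling with and without mitochondrial genes, a replicate block and each library left out. All 46 members are named. Values per library are given for PSMB5 to PSMB10, the extremes of each class, members without overlap, the most and least abundant per length, and NFE2L1 and POMP, with ADRM1, SEM1, USP14 and UCHL5 always named. B2M, TAP1, PSMB2 and the library patterns were chosen after their values were seen. Members and gene lists were chosen with earlier results of these data known.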

Additional observations from a re-analysis of the deposited data

How the results depend on the processing

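The count of proteasome genes past the threshold was 0 in the limma fit with all libraries and 0 in each of 18 alternatives. That limma fit counted 5 at an unadjusted p under 0.05, against 2.11% of all genes. At an unadjusted p under 0.05, edgeR and DESeq2 counted 6, limma-voom 4, limma with total-count scaling 2, and limma with no mitochondrial genes in the totals, or with no variance trend, 1. With 1 library left out, limma counted 0 (ALDH high 2), 1 (ALDH high 3, ALDH low 1 or ALDH low 3), 3 (ALDH high 1) or 7 (ALDH low 2). Shares over all genes at an unadjusted p are not given for these alternatives, so the counts cannot be set against a background. Without both libraries numbered 2, 107 of all genes passed and the smallest adjusted p of a proteasome gene was 0.248 (limma). The count of the 54 other listed genes past the threshold was 0 in all of these too. The sign of the difference turned in at least 1 alternative in 24 of the 46 genes and in none for 22. Of those 22, 20 lay below 0, among them all 7 alpha subunits, and 2 above, PSMD1 and PSME3. The share of all genes that kept their sign is not given, so these counts have no background. The fits with no variance trend, with a replicate block and with a mean of at least 50 could not turn a sign. They leave the difference of each kept gene as it is. The median over the 46 genes was −0.07 with total-count scaling and −0.05 when mitochondrial genes were also left out, with 32 and 28 genes below 0, and these scalings moved the median of all genes from 0.02 to 0.06 and 0.07. Leaving out 1 library at a time gave medians of −0.20 to 0.003, and for the alpha subunits −0.51 to −0.28. For the activators the range was −0.12 to 0.053, the lowest without ALDH low 1. Genes lower in ALDH high without overlap numbered 9 (19.6%), against 3.32% of all genes. With either total-count scaling they numbered 6 (13%), against 2.51%, or 2.23% with no mitochondrial genes in the totals. With 1 library left out they numbered 10 to 14 (21.7% to 30.4%), against 5.31% to 14.2% of all genes. Without both libraries numbered 2, an alternative chosen after seeing the data, they numbered 15 (32.6%), against 23.5% of all genes. With the length of the principal transcript, the ratio of the highest to the lowest core gene was 34.1, and the shares in the catalytic pairs were 0.207% and 0.181% for PSMB8, 1.66% and 1.56% for PSMB9, and 2.73% for PSMB10 in ALDH high. Without mitochondrial reads, proteasome genes took 0.748% (ALDH high) against 0.777% (ALDH low) of reads.

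No pairing of the samples by replicate number was visible, which does not exclude one. The deviations from the group mean of samples with the same number had correlations of −0.46, −0.43 and 0.14. Across groups 1 of the 6 samples, ALDH low 3, correlated best with its own number. With the replicate block, limma called 0 proteasome genes and 5 at an unadjusted p under 0.05; the block cannot change a difference in this balanced design, so the median of −0.11 is the same by construction. Depth limits PSMB8, whose values rest on 3 to 19 reads.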
